A study of Mus musculus with 14 samples.

Results

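The ErbB receptors and their ligands were followed here in supporting cells (SCs) of the neonatal mouse cochlea. The 7 genes were chosen by name as members of the EGF family, though with earlier results of these data known. They are the receptors Egfr, Erbb2, Erbb3 and Erbb4 and the ligands Nrg1, Hbegf and Tgfa, 7 of the 35976 gene symbols counted. All 7 were counted at both ages and passed the filter on low counts in every comparison.

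RNA was sequenced from EGFP-positive SCs that were sorted from cochlear explants of Lfng-EGFP mice after 24 h in culture. All 14 libraries carry this transgene, in which regulatory DNA of Lfng drives EGFP, and each library holds cells pooled from several cochleae. Explants received 2 μM compound E (CompE), an inhibitor of γ-secretase, the protease that releases the intracellular domain of Notch receptors, or the solvent DMSO alone. There were 4 CompE and 4 DMSO libraries at P0 (the growth notes in the labels say P0-P1) and 3 of each at P6. Replicate numbers join the CompE and DMSO libraries of 1 batch, so that there were 7 pairs in all, and no batch held both ages.

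ErbB receptors are tyrosine kinases of the cell surface that signal as pairs. EGFR binds ligands such as TGFα and HB-EGF, ERBB3 and ERBB4 bind neuregulins such as NRG1, and ERBB4 can also bind HB-EGF. ERBB2 has no known ligand of its own and acts as a partner of the others, and ERBB3 has a weak kinase and depends on its partner. The ligands are made as membrane-bound precursors that metalloproteases release, and the pathway runs largely through RAS and ERK and through PI3K and AKT. In the organ of Corti, EGFR signaling has been linked to SC proliferation and to hair cell replacement, and neuregulin signaling between SCs, neurons and glia has been linked to neuron survival.

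Erbb4 carried the clearest response in what follows, and it is also the member with the closest link to the inhibited protease. That link concerns the protein, and whether it bears on Erbb4 RNA was not tested. Its transcripts differ by alternative exons. A protein with the JM-a exon beside the membrane can be released by ADAM17 and then cut by γ-secretase, and one with the JM-b exon is not released in this way. A protein with the CYT-1 exon in the cytoplasmic tail holds a docking site for PI3K. The exons are shown because the deposited counts are sums over a gene and do not say which of them the SCs used, so the share of each form was not measured. Erbb4 lies on the minus strand of chromosome 1, at chr1:68032186-69108059 of GRCm38. The sequences were taken from the GENCODE transcripts, which run along that strand, with positions from the GENCODE annotation, which holds 3 coding transcripts of Erbb4. The JM-a exon (chr1:68290243-68290317) is in 2 of them, the JM-b exon (chr1:68290439-68290483) in 1 and the CYT-1 exon (chr1:68043908-68043955) in 1. Capitals in the CYT-1 exon mark the codons of the PI3K docking site and of the overlapping stretch that binds WW domains.
JM-a exon of Erbb4: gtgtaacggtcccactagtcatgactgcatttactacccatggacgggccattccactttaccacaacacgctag
JM-b exon of Erbb4: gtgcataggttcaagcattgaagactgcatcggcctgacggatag
CYT-1 exon of Erbb4: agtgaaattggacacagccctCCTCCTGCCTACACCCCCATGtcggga

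Between 19415066 and 44430063 reads per library were counted on genes (median 29565675.5). Values are given as RPM, the count of a gene scaled to 1000000 counts on genes in that library. The 8 SC markers summed to between 1634 and 9518 RPM, and each of them was above 1 RPM in some library. The 8 hair cell markers summed to between 377 and 2168 RPM, of which Myo6 made up much, and whether this RNA came from hair cells was not tested. Neuron markers (7 genes) summed to 314 to 497 RPM with Elavl3 under 1 RPM throughout, and Schwann cell markers (7 genes) to 30.8 to 91.2 RPM with Pmp2 at 0. Mbp alone, at 28.9 to 70.3 RPM, made up most of the Schwann cell sum. Melanocyte markers (6 genes) summed to 9.57 to 22.3 RPM, with Tyr, Mlana and Tyrp1 under 1 RPM in every library. Mesenchyme markers (7 genes) summed to 897 to 4081 RPM, macrophage markers (6 genes) to 0.947 to 86.0 RPM and endothelial markers (6 genes) to 1.07 to 46.2 RPM. The highest of these last 3 sums came from the replicate 3 libraries at P6, where macrophage markers reached 86.0 RPM with CompE and 34.7 RPM with DMSO against at most 8.75 RPM in the other P6 libraries. At P0 the SC markers summed to 4420 to 5023 RPM with CompE and 4815 to 9518 RPM with DMSO, and the hair cell markers to 1168 to 2168 RPM and 603 to 1352 RPM. Lfng itself, whose regulatory DNA drives the EGFP of the sort, was at 756 to 1139 RPM with CompE and 1144 to 3677 RPM with DMSO at P0.

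The receptors and ligands were transcribed at very unequal levels. Per kilobase of merged exons, in DMSO libraries at P0, Tgfa stood at 16.6 ± 2.21 RPM per kb, Erbb3 at 15.3 ± 2.59 and Erbb2 at 15.1 ± 1.63 (SD, n = 4). By this length these 3 did not differ beyond their spread, whereas over the longest annotated transcript Tgfa stood above Erbb2 and Erbb3. Below them came Egfr at 8.00 ± 2.62, Erbb4 at 6.31 ± 2.02 and Hbegf at 5.51 ± 1.95 RPM per kb, which also lay within 1 SD of each other in this order. Nrg1 was the lowest, at 0.386 ± 0.409 RPM per kb.

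In DMSO libraries at P6 the same 3 genes led, with Erbb3 at 17.9 ± 2.00, Tgfa at 16.4 ± 5.49 and Erbb2 at 16.3 ± 3.61 RPM per kb (SD, n = 3), again without a difference beyond their spread. Egfr followed at 7.42 ± 1.62 RPM per kb. Hbegf at 3.47 ± 1.01 and Erbb4 at 2.17 ± 1.77 RPM per kb overlapped within 1 SD, and Nrg1 was at 0.224 ± 0.124 RPM per kb.

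**Figure D1:**
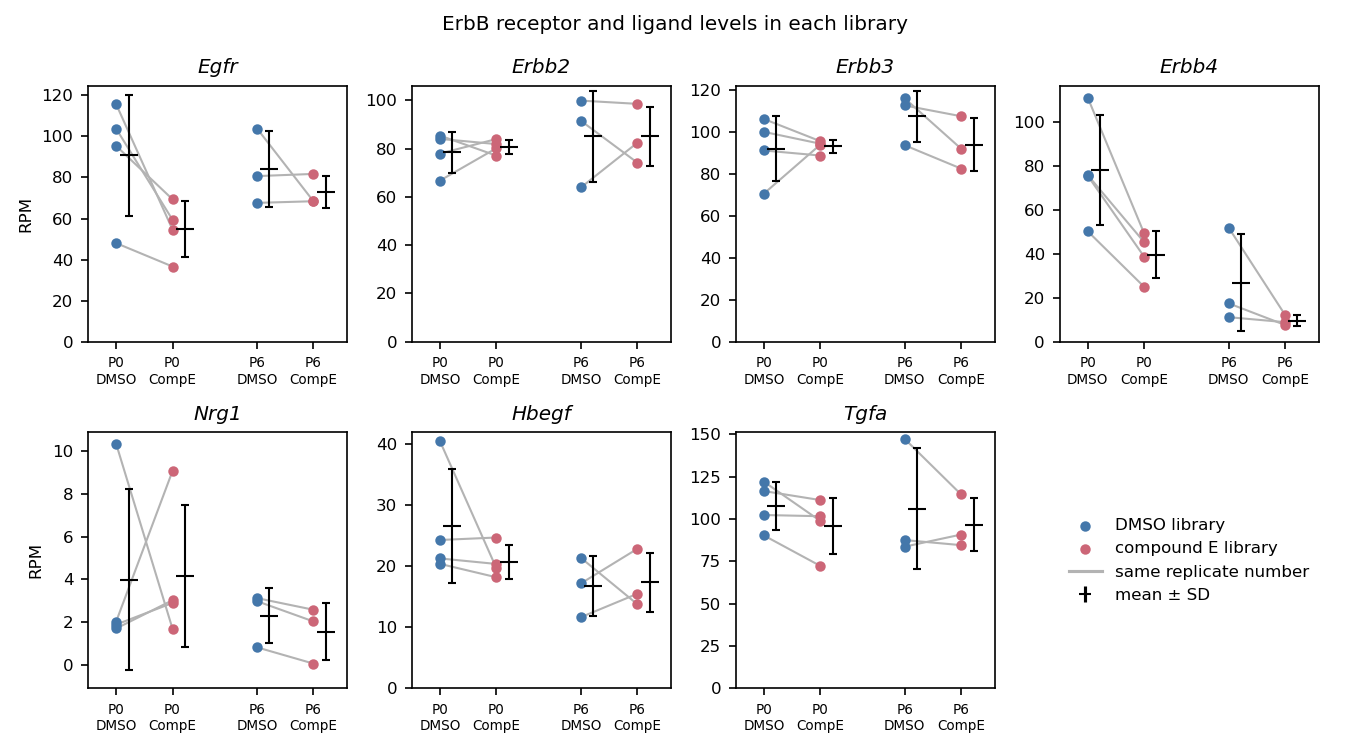
Level of each ErbB receptor and ligand in every library, in RPM, with lines joining the CompE and DMSO libraries of 1 replicate number and bars for the mean ± SD of each group. Erbb4 lies between 25.0 and 49.3 RPM in the 4 CompE libraries at P0 and between 50.2 and 111 RPM in the 4 DMSO libraries, while Erbb2 and Erbb3 lie at similar levels in all 4 groups.

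The first comparison asked whether blocking Notch signaling at P0, an age at which SCs can still turn into hair cells, changed ErbB expression. Differences are given as log2 fold changes of CompE over DMSO from edgeR's quasi-likelihood test, fitted across 15937 genes with p-values adjusted over all of them by Benjamini-Hochberg. Calls required a change of 2-fold or more together with an adjusted p no higher than 0.01. None of the 7 genes was called at P0 with treatment as the only term, where 1.22% of all genes were, although 2 of the 7, and 2135 of all 15937 genes, were at an unadjusted p under 0.05. DESeq2, which called 1.7% of all genes, called none of the 7 either, again with 2 of the 7 at an unadjusted p under 0.05. With a block for the replicate number, so that each pair was compared within itself, 1 of the 7 was called, Erbb4, against 2.2% of all genes. It was also the 1 member called with the batch as a block, against 2.1% of all genes.

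Erbb4, the neuregulin receptor with its own active kinase, was lower under CompE in every pair at P0. In CompE replicates 1 to 4 it was at 25.0, 49.3, 45.3 and 38.7 RPM. The DMSO libraries of the same numbers held 50.2, 111, 75.7 and 75.4 RPM. Every CompE library lay below every DMSO library, as it did for 4.76% of all genes tested, and each was below the DMSO library of its own pair. The group means were 39.6 ± 10.7 and 78.0 ± 24.9 RPM (SD, n = 4), so that the CompE mean was 50.7% of the DMSO mean. The log2 fold change was -1.02 (SE 0.289), with an adjusted p of 0.0993 in edgeR's quasi-likelihood test. Under the replicate block Erbb4 fell by 1.01 on the log2 scale (SE 0.0976), with an adjusted p of 0.000735. DESeq2 gave -1.02 with an adjusted p of 0.016. With the block but without pair 1 the estimate was -0.99 at an adjusted p of 0.00296, and without pair 2 it was -0.94 at 0.00299, so that in both cases the call was lost because the change was smaller than 2-fold. In bulk samples such as these, fewer cells of a type and less RNA per cell cannot be told apart.

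Egfr, the receptor of TGFα and HB-EGF, was at 36.6, 59.4, 69.4 and 54.6 RPM in the CompE libraries and at 48.0, 104, 95.3 and 116 RPM in the DMSO libraries of P0. The groups overlapped through DMSO replicate 1, but within each pair CompE was the lower. The means were 55.0 ± 13.7 and 90.7 ± 29.6 RPM (SD, n = 4), or 60.7% of the DMSO mean. In edgeR's quasi-likelihood test the log2 fold change was -0.77 (SE 0.297, adjusted p 0.273), and with the replicate block it was -0.72 (SE 0.126, adjusted p 0.0122). With the batch as a block it reached an adjusted p of 0.00714 with a change under 2-fold. When the threshold was set at an adjusted p of 0.05 with no minimum fold in the blocked fit, Egfr and Erbb4 both passed, 2 of the 7 against 7.5% of all genes. With treatment as the only term and single libraries left out, Egfr ran from -0.99 to -0.60 (adjusted p 0.0315 to 0.532) and Erbb4 from -1.21 to -0.79 (adjusted p 0.0316 to 0.249), the lowest of each without DMSO replicate 1, and neither was called.

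The remaining receptors did not follow. Erbb2, the partner without a ligand, was at 80.1, 81.8, 83.9 and 77.0 RPM with CompE and at 66.7, 84.0, 77.9 and 85.4 RPM with DMSO. Erbb3, the neuregulin receptor with the weak kinase, was at 94.1, 95.8, 88.9 and 94.6 RPM with CompE and at 70.8, 106, 91.4 and 100.2 RPM with DMSO. In both genes the groups overlapped, and the CompE library was the lower in 2 of 4 pairs for Erbb2 and in 3 of 4 for Erbb3. The log2 fold changes were -0.00 (SE 0.122) and -0.03 (SE 0.150), and 0.01 (SE 0.096) and -0.01 (SE 0.112) with the block.

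Among the ligands, Tgfa was at 72.3, 102, 111 and 98.9 RPM with CompE and at 90.3, 102, 117 and 122 RPM with DMSO at P0. It was lower in all 4 pairs, by as little as 0.01 on the log2 scale in pair 2 and by 0.32 at most, and the groups overlapped. Its log2 fold change was -0.20 (SE 0.175, adjusted p 0.730), and -0.21 (SE 0.091, adjusted p 0.248) with the block. In all, 3 of the 7 genes (Egfr, Erbb4 and Tgfa) were lower in every pair at P0, against 11.7% of all genes tested.

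Hbegf was at 24.7, 20.4, 19.7 and 18.2 RPM with CompE and at 24.3, 21.3, 40.5 and 20.4 RPM with DMSO. The groups overlapped, and the mean of the DMSO group, 26.6 ± 9.40 RPM (SD, n = 4), was raised by replicate 3. The log2 fold change was -0.41 (SE 0.224, adjusted p 0.508). Nrg1 was low, with 33 to 413 counts in the P0 libraries, at 2.90, 1.70, 9.07 and 3.03 RPM with CompE and at 1.89, 10.3, 2.03 and 1.71 RPM with DMSO. One library of each group stood far above the rest, replicate 3 with CompE and replicate 2 with DMSO, and the fold change was 0.00 (SE 0.702). The median log2 fold change of the 7 genes at P0 was -0.20, and that of all genes tested was 0.01.

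**Figure D2:**
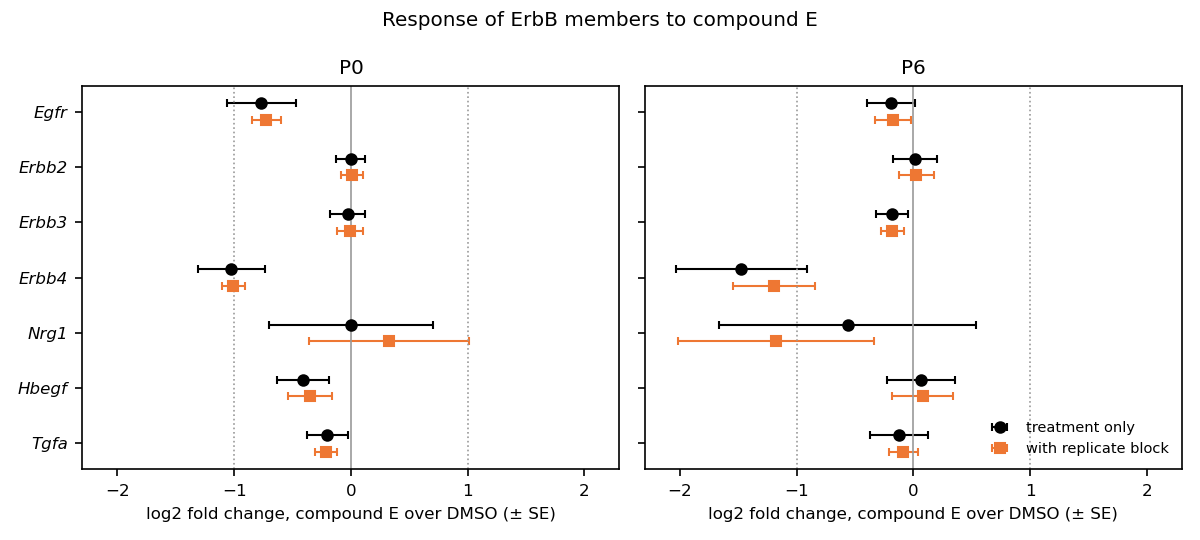
Log2 fold change of CompE over DMSO for each of the 7 genes at P0 and at P6, as points with bars of 1 SE, from edgeR with treatment as the only term and with the replicate block. At P0 the estimate of Erbb4 is -1.02 without and -1.01 with the block while its SE goes from 0.289 to 0.0976, and Erbb2 and Erbb3 lie at 0.

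Taken pair by pair, the P0 ratios of Erbb4 were even. They ran from -1.17 to -0.74 on the log2 scale, with a mean of -0.97 and an SD of 0.18 over 4 pairs. Those of Egfr ran from -1.08 to -0.39 (mean -0.68, SD 0.32). The summed SC markers had log2 ratios of -0.12, -0.99, -0.78 and -1.002 in pairs 1 to 4, and the summed hair cell markers of 1.23, 0.95, 0.90 and 0.30. Both marker sums therefore moved with CompE alongside Erbb4 and Egfr, though not all of their genes did. Of the hair cell markers, Atoh1, Pou4f3, Gfi1, Myo6 and Ccer2 were higher in RPM in all 4 pairs. Pvalb was lower in 3 pairs, Otof in 2 and Myo7a in 1. At P0, 5 of the 8 SC markers were lower at an adjusted p of at most 0.05, Hey2 being called (log2 fold change -1.17, adjusted p 0.00835), and 0 of the 8 hair cell markers passed that threshold, with 2 at an unadjusted p under 0.05 in edgeR and a median log2 fold change of 0.70. DESeq2 called 3 SC markers and 1 hair cell marker. In the fit with the replicate block, the one in which Erbb4 was called, 3 SC markers were called lower (Lfng, Jag1 and Hey2) and 5 of 8 were lower at an adjusted p of at most 0.05. In the same fit 4 of the 8 hair cell markers were higher at that threshold and 2 of them were called, among them Atoh1, the transcription factor that starts hair cell differentiation (1.94, adjusted p 0.000122). The small difference of the SC sum in pair 1 was made of markers on both sides, with Sox2 (365 RPM with CompE and 557 RPM with DMSO), Lfng, Jag1, Hey2 and Cdkn1b lower and Fgfr3 (1793 and 1231 RPM), Rorb and Prox1 higher with CompE. Over the P0 group means Fgfr3 was at 113% and Rorb at 133% of DMSO, while 6 of the 8 SC markers had edgeR estimates below 0. The paper counts Lfng among canonical Notch targets and reports that Hey2 fell on Notch inhibition. The SC sum therefore cannot tell fewer SCs from a response of its own genes to CompE. The part of these marker changes in the Erbb4 and Egfr results was not tested.

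**Figure D3:**
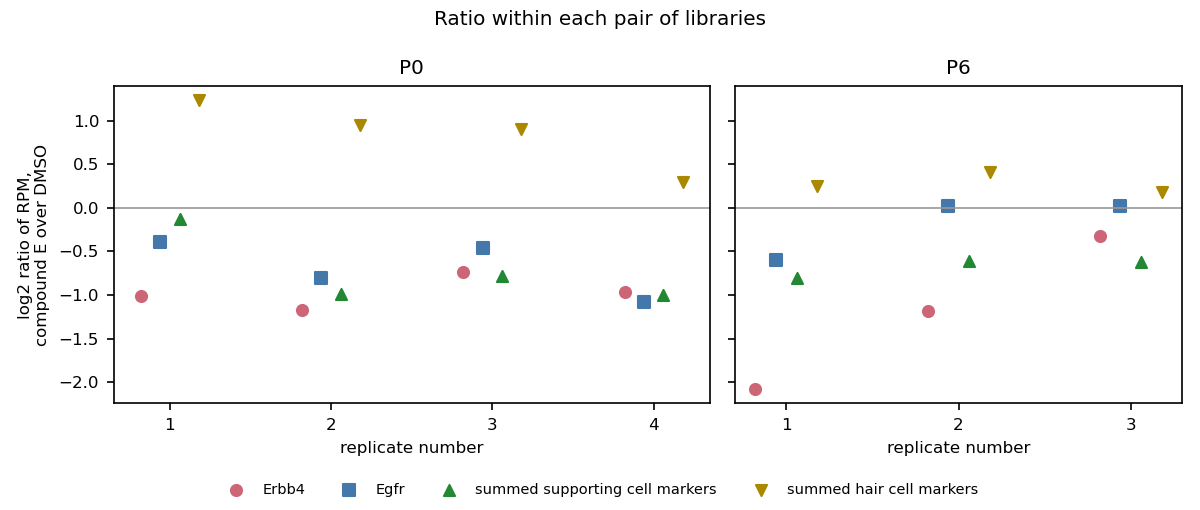
Log2 ratio of CompE over DMSO RPM in each of the 7 pairs for Erbb4, Egfr and the summed markers of SCs and hair cells, with P0 and P6 pairs apart. All 7 Erbb4 ratios lie below 0, from -1.17 to -0.74 at P0 and from -2.08 to -0.33 at P6, and the SC marker sum in pair 1 at P0 stands at -0.12.

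At P6, when SCs have largely lost the ability to form hair cells, the same comparison was made across 15322 genes. No gene was called by edgeR with treatment as the only term (0% of all genes) or with the replicate block (again 0%), though 289 and 1108 genes were at an unadjusted p under 0.05. DESeq2 called 13 genes, none of them among the 7. One of the 7, Erbb4, was at an unadjusted p under 0.05 in each of the 3 fits.

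Erbb4 at P6 was at 12.3, 7.66 and 8.92 RPM in the CompE replicates 1 to 3 and at 51.9, 17.5 and 11.2 RPM in the DMSO replicates. Each CompE library was below its own DMSO library, but the groups overlapped, since CompE replicate 1 was above DMSO replicate 3. The means were 9.63 ± 2.39 and 26.8 ± 21.9 RPM (SD, n = 3), or 35.9% of the DMSO mean. In edgeR's quasi-likelihood test the log2 fold change was -1.47 (SE 0.561, adjusted p 1.00), and with the replicate block -1.19 (SE 0.350, adjusted p 0.591). One library weighed heavily on the size, since without DMSO replicate 1 the estimate was -0.58 (SE 0.339, adjusted p 1.00). Without the replicate 3 pair, which carried the most macrophage, mesenchyme and endothelial marker RNA, it was -1.78 (SE 0.550), and -1.63 (SE 0.309, adjusted p 0.271) with the block.

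Egfr at P6 was at 68.4, 81.7 and 68.4 RPM with CompE and at 104, 80.6 and 67.6 RPM with DMSO. It was lower in 1 of 3 pairs, and the log2 fold change was -0.19 (SE 0.207). Erbb2 was at 74.2, 82.4 and 98.5 RPM with CompE and at 91.5, 63.9 and 99.8 RPM with DMSO (log2 fold change 0.02, SE 0.186). Erbb3 was at 92.2, 82.7 and 108 RPM with CompE and at 116, 93.8 and 113 RPM with DMSO. It was lower in 3 of 3 pairs, by 0.07 to 0.33 on the log2 scale, with a log2 fold change of -0.18 (SE 0.140).

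The ligands gave no call at P6. Tgfa was at 115, 84.6 and 90.8 RPM with CompE and at 147, 87.6 and 83.7 RPM with DMSO (log2 fold change -0.13, SE 0.249). Hbegf was at 13.8, 15.5 and 22.9 RPM with CompE and at 21.4, 11.7 and 17.2 RPM with DMSO, and its groups overlapped with the order of the libraries mixed. Nrg1 was at 2.59, 0.0697 and 2.04 RPM with CompE, where the value of replicate 2 rests on 2 counts, and at 3.13, 0.828 and 2.98 RPM with DMSO. Its log2 fold change was -0.56 (SE 1.10), too imprecise to show a change of 2-fold. Lower in every pair at P6 were 3 of the 7 genes, Erbb3, Erbb4 and Nrg1, against 17.1% of all genes tested. The median log2 fold change of the 7 genes was -0.18, and that of all genes was 0.00.

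Whether the responses differed between the ages was tested as the interaction over all 14 libraries and 17090 genes. None of the 7 genes was called by edgeR without a block (0% of all genes called, 811 at an unadjusted p under 0.05, none of the 7 among them). With the replicate block 0.0936% of all genes were called and again none of the 7, with 1 of them, Egfr, at an unadjusted p under 0.05. DESeq2 called 32 genes, of which none was a member. For Erbb4 the P6 response minus the P0 response was -0.43 (SE 0.623), and -0.18 (SE 0.337) with the block, so that a difference between the ages was not shown for a receptor that was lower in all 7 pairs. For Egfr it was 0.59 (SE 0.417), and 0.56 (SE 0.216, unadjusted p 0.0276, adjusted p 0.424) with the block.

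Age itself was compared next, as P6 over P0, separately in the DMSO and in the CompE libraries of 1 fit over all 14. No batch holds both ages, so age and batch cannot be told apart in what follows. With DMSO, edgeR called 7.12% of all genes and none of the 7, with 2 of the 7 (Erbb4 and Hbegf), and 6074 of all 17090 genes, at an unadjusted p under 0.05. DESeq2 called 7.33% of all genes and limma's voom with the pair as a random effect 7.16%, and each called 1 of the 7, Erbb4. With CompE, edgeR called 6.43% of all genes and none of the 7, with 1 of the 7, Erbb4, and 6098 of all genes at an unadjusted p under 0.05. There DESeq2 called 6.83% of all genes and Erbb4 among them, and voom with the pair called 6.38% and none of the 7.

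Erbb4 was the member furthest below its P0 level at P6. Its mean in DMSO libraries was 26.8 RPM at P6 and 78.0 RPM at P0, or 34.4%, and the groups overlapped because P6 replicate 1 (51.9 RPM) was above P0 replicate 1 (50.2 RPM). In CompE libraries it was 9.63 RPM against 39.6 RPM, or 24.3%, without overlap. The log2 fold change with DMSO was -1.49 (SE 0.456, adjusted p 0.0311 in edgeR's quasi-likelihood test), which DESeq2 gave as -1.48 (adjusted p 0.00496) and voom with the pair as -1.86 (SE 0.405, adjusted p 0.00467). Without DMSO replicate 1 of P6 it was -2.37 (adjusted p 0.0016) and was called, and over all single libraries left out it ran from -2.37 to -1.10, with adjusted p up to 0.116. With CompE the log2 fold change was -1.92 (SE 0.469, adjusted p 0.0106), just outside the threshold of 0.01. It was called when P0 DMSO replicate 1, P6 DMSO replicate 1 or P6 DMSO replicate 3 was left out of the fit, over all single libraries left out it ran from -2.12 to -1.78 (adjusted p 0.00163 to 0.05), and voom with the pair gave -1.89 with an adjusted p of 0.0217. The SC markers also summed to less at P6 (2511 to 5653 RPM with DMSO against 4815 to 9518 RPM at P0), though not every marker fell. With DMSO, 6 of the 8 had edgeR estimates below 0 and 2 above it. Among these 8, 2 were called lower and 1 was called higher. Rorb had a mean of 228 RPM at P0 and 441 RPM at P6 with DMSO. The part of the SC markers in the Erbb4 result was not tested, so the values stand as differences between these sorted samples.

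The other receptors stood at similar levels at both ages. Egfr at P6 was at 92.7% of its P0 mean with DMSO and at 132% with CompE, Erbb2 at 108% and 105%, and Erbb3 at 117% and 101%. The log2 fold changes with DMSO were -0.05 (SE 0.294) for Egfr, 0.17 (SE 0.152) for Erbb2 and 0.28 (SE 0.150, adjusted p 0.192) for Erbb3. Egfr with CompE was at 0.54 (SE 0.293, adjusted p 0.206). Tgfa was at 98.5% and 101% of its P0 mean. Hbegf was at 62.9% with DMSO (log2 fold change -0.61, SE 0.267, adjusted p 0.117) and at 83.8% with CompE, and Nrg1 at 58.0% and 37.5%, with SEs of 0.935 and 0.959 on the log2 scale. Every P6 library lay below every P0 library for none of the 7 genes with DMSO, against 18.7% of all genes, and for 1 of the 7 with CompE, against 25% of all genes. The median log2 fold change of the 7 was -0.05 with DMSO and 0.14 with CompE, beside -0.05 and -0.03 for all genes.

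The 61 other genes of the pathway were then read by role. These were 8 other ligands, 7 genes of ligand release and transport, 20 signal transducers, 9 genes that restrain the receptors and 17 feedback and target genes of ERK. At P0 edgeR called none of the 58 that passed the filter, with 8 at an unadjusted p under 0.05. DESeq2 called 2 of 60, Egf and Adam12, against 1.7% of all genes, and edgeR with the replicate block called 1 of 58, Egf, against 2.2%. The median log2 fold change was 0.51 for the 5 other ligands tested, -0.16 for ligand release, -0.01 for transducers, 0.07 for restraint and 0.05 for ERK targets.

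Among the other ligands, Egf, which encodes the founding ligand of EGFR, was higher with CompE at P0. It was at 27.7, 10.8, 15.5 and 12.2 RPM with CompE and at 9.42, 5.01, 5.62 and 6.24 RPM with DMSO. All CompE libraries were above all DMSO libraries, as for 5.13% of all genes tested, and the CompE mean was 252% of the DMSO mean. The log2 fold change was 1.29 (SE 0.289, adjusted p 0.0373 in edgeR's quasi-likelihood test). With the replicate block Egf rose by 1.24 (SE 0.158, adjusted p 0.0028), and this call was lost without pair 1, 3 or 4 (adjusted p of 0.0143, 0.0273 and 0.0101). Btc, which encodes betacellulin, a ligand of EGFR and ERBB4, was at 17.2, 17.7, 14.5 and 18.1 RPM with CompE and at 16.9, 8.09, 11.5 and 8.58 RPM with DMSO (log2 fold change 0.56, SE 0.215, adjusted p 0.263). Nrg4 was between 1.18 and 4.03 RPM over all libraries, Areg, Epgn, Nrg2 and Nrg3 stayed under 1.2 RPM, and Ereg had no count in any library.

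Of the genes of ligand release, Adam12, a metalloprotease that can release HB-EGF, was at 1.91, 1.34, 1.89 and 1.48 RPM with CompE and at 2.54, 3.73, 5.08 and 6.61 RPM with DMSO. The groups did not overlap at these low levels. Its log2 fold change at P0 was -1.48 (SE 0.334, adjusted p 0.0376), and DESeq2 called it at an adjusted p of 0.000495. With the replicate block it was -1.40 (adjusted p 0.0341). Leaving out single libraries gave -1.70 to -1.24 with adjusted p of 0.00918 to 0.133, and edgeR called Adam12 only without DMSO replicate 1. Rhbdf1, which encodes a rhomboid pseudoprotease that helps ADAM17 to the cell surface, was at 53.6, 27.1, 39.0 and 28.8 RPM with CompE and at 84.8, 45.1, 46.3 and 55.1 RPM with DMSO. It was lower in all 4 pairs (log2 fold change -0.67, SE 0.226, adjusted p 0.185, and -0.68 with an adjusted p of 0.0129 in the blocked fit).

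Transducers and restraining genes gave small differences. Hras was at -0.24 (SE 0.105, adjusted p 0.344) and Pik3r1, which encodes the regulatory subunit of PI3K, at -0.47 (SE 0.248, adjusted p 0.482), both lower in all 4 pairs. Cblb, which encodes a ubiquitin ligase that sends active receptors to degradation, was at 71.7 to 83.6 RPM with CompE and 43.6 to 70.1 RPM with DMSO, without overlap (log2 fold change 0.26, SE 0.176, adjusted p 0.633). Rnf41, which encodes a ubiquitin ligase of ERBB3, was at -0.11 (SE 0.096, adjusted p 0.730).

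Of the 17 ERK targets, 1 was lower (Etv4) and none was higher at an adjusted p of at most 0.05 at P0 in edgeR with treatment as the only term. With the replicate block 2 were lower and none was higher, Etv4 and Spry4. Spry4, named after its values were seen, was at -1.19 (SE 0.242, adjusted p 0.0232) in that fit. Etv4, an ETS transcription factor induced by ERK signaling, was at 9.66, 10.6, 13.8 and 10.9 RPM with CompE and at 24.4, 15.9, 20.1 and 15.7 RPM with DMSO, without overlap. Its log2 fold change was -0.79 (SE 0.183, adjusted p 0.0429), and -0.79 with an adjusted p of 0.0283 with the block. Phlda1 was at 304 to 349 RPM with CompE and 218 to 306 RPM with DMSO (log2 fold change 0.35, SE 0.132, adjusted p 0.257). Egf, Btc, Cblb and Phlda1 were higher in all 4 pairs, as were 17.4% of all genes tested.

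At P6 edgeR called none of the 56 pathway genes tested, with 1 at an unadjusted p under 0.05 without a block and 4 with the replicate block. DESeq2 called none of 60. Without a block the medians were -0.54 over 3 other ligands, 0.00 for ligand release, 0.04 for transducers, -0.02 for restraint and -0.08 for ERK targets. Egf was at 0.52 (SE 0.661), Btc at -0.54 (SE 0.521), Adam12 at -0.73 (SE 0.946), Rhbdf1 at -0.53 (SE 0.331) and Etv4 at -1.07 (SE 0.675). For the interaction edgeR, without and with the replicate block, and DESeq2 each called none of the pathway genes. Without a block edgeR had none of the 57 at an unadjusted p under 0.05, and with it 5.

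**Figure D4:**
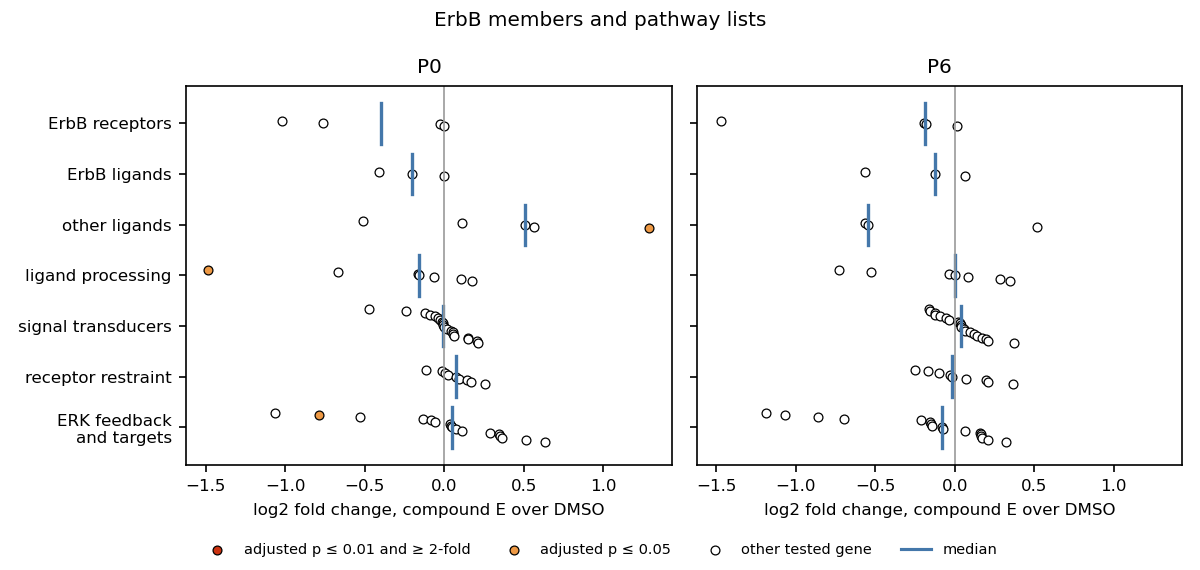
Log2 fold change of CompE over DMSO at P0 and at P6 for the ErbB members and each of the 5 lists of pathway genes, 1 point per gene from edgeR with treatment as the only term, filled orange at an adjusted p of at most 0.05 and red where called, with a blue line at the median of the list. At P0 Egf (1.29), Adam12 (-1.48) and Etv4 (-0.79) are orange and none is red, and at P6 all points are white.

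The pathway lists were then read across age. The genes named here were chosen after their values were seen, all of them called by edgeR. With DMSO, 5 of the 17 ERK targets fell from P0 to P6 and none rose, where 3.38% of all genes were called lower, with a list median of -0.82 beside -0.05 for all genes. They were Dusp6 (-1.38, SE 0.167, adjusted p 8.6e-05), which encodes the phosphatase of ERK, the feedback inhibitor Spry1 (-2.11, SE 0.263, adjusted p 0.000114), the ETS factor Etv5 (-1.11, SE 0.164, adjusted p 0.000425) and the immediate early genes Egr1 (-1.89, SE 0.367, adjusted p 0.00264) and Fos (-2.55, SE 0.473, adjusted p 0.00198). With CompE, 7 of the 17 fell, where 2.89% of all genes were called lower (list median -1.15 beside -0.03 for all genes), namely the same 5 with Dusp4 (-2.69) and Spry2 (-1.06). Dusp6 and Spry1 were called whichever single library was left out. With DMSO the call was lost for Etv5 without replicate 3 of P0 or of P6 (changes just under 2-fold), for Egr1 without P6 replicate 1 (adjusted p 0.0126) and for Fos without P6 replicate 2 (adjusted p 0.0128). With CompE it was lost for Spry2 without P6 CompE replicate 2 or 3 (adjusted p 0.013 and 0.0138), and for Dusp4 without any 1 of P0 CompE replicates 2 to 4, P0 DMSO replicate 2 or P6 CompE replicates 1 to 3 (adjusted p 0.0104 to 0.0255). These targets also respond to other receptors that signal through ERK, FGF receptors among them. The FGF receptor Fgfr3, also one of the SC markers, had a mean of 531 ± 440 RPM at P6 and 1571 ± 275 RPM at P0 with DMSO (SD). With CompE its means were 414 ± 168 and 1771 ± 130 RPM. The part of Fgfr3 in the fall of the ERK targets was not tested. Cell type markers were read across age as well. The median log2 fold change with DMSO and with CompE was -1.04 and -0.83 for SC markers, -0.43 and -0.76 for hair cell markers, 0.61 and 0.82 for mesenchyme, 2.19 and 2.83 for macrophage, 1.20 and 2.34 for endothelial and 2.41 and 1.82 for melanocyte markers. For Schwann cell markers it was -0.08 and -0.68, and for neuron markers 0.32 and -0.03. At an adjusted p of at most 0.05 in edgeR, 4 SC markers were lower and 1 higher with each treatment, and 2 hair cell markers were lower. With DMSO 2 neuron markers, 1 mesenchyme marker and 1 of 4 melanocyte markers tested were higher, and none with CompE. No macrophage, endothelial or Schwann cell marker passed with either treatment. The part of all these markers in the age results was not tested.

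Of the 7 genes of ligand release, 2 fell with DMSO and 2 with CompE, against the same 3.38% and 2.89% of all genes. Rhbdf1 was at -1.65 (SE 0.294, adjusted p 0.00152) with DMSO and -1.48 with CompE, and its relative Rhbdf2 at -1.20 (SE 0.192, adjusted p 0.000723) and -1.08. Rhbdf1 in DMSO libraries was at 26.4, 11.6 and 14.4 RPM at P6, below all 4 P0 libraries. The CompE call of Rhbdf1 was lost without any 1 of P6 CompE replicates 1 to 3 (adjusted p 0.0109 to 0.0173), and that of Rhbdf2 without P6 CompE replicate 2 (-0.89). Of the 9 restraining genes 1 fell with each treatment, Lrig3, by 1.30 on the log2 scale with DMSO (SE 0.204, adjusted p 0.000648) and by 1.22 with CompE. None of the 20 transducers was called with DMSO in edgeR or DESeq2, 8 being at an unadjusted p under 0.05, and with CompE 1 rose, Mapk3, which encodes the kinase ERK1 (1.05, and just under 2-fold without replicate 1 of P0 or P6 CompE). None of the 4 other ligands tested was called by edgeR with either treatment, with 1 at an unadjusted p under 0.05 in each, or by DESeq2. Both age comparisons use separate libraries, but each sets the same 3 P6 batches against the same 3 P0 batches.

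**Figure D5:**
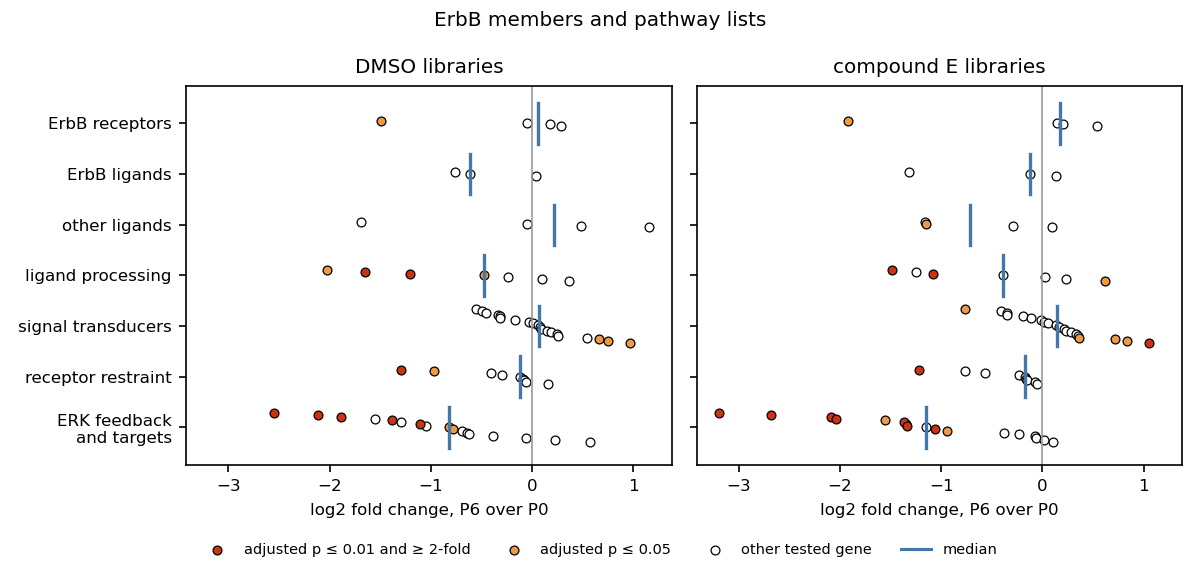
Log2 fold change of P6 over P0 in the DMSO and in the CompE libraries for the ErbB members and the 5 lists of pathway genes, 1 point per gene, with the same colors and median lines as in the plot of the pathway response. The ERK targets lie mostly below 0, with medians of -0.82 with DMSO and -1.15 with CompE, and Erbb4 is the lowest member at -1.49 and -1.92.

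The variation of the members between libraries was partly shared. After the mean of each age was subtracted, Pearson's r over the 14 libraries was 0.80 between Erbb4 and Tgfa, 0.77 between Egfr and Tgfa, 0.75 between Egfr and Erbb4 and 0.71 between Erbb2 and Erbb3. The libraries share batches and treatments, so these values are descriptions. By the same measure, over 17089 other genes, the closest pattern to Erbb4 was that of Tcaf2 (0.94), followed by Slc22a23 and Pgpep1 (0.93 each). For Egfr it was Fbxw8 (0.95), for Erbb2 Appl1 (0.93), for Erbb3 Cd274 (0.92), for Nrg1 Birc3 (0.93), for Hbegf Popdc3 (0.84) and for Tgfa Gnb1 (0.96). The binding core of RBPJ, the DNA-binding partner of Notch, was searched as TGGGAA on both strands of the 250 bases before the start of each gene in RefSeq promoters of GRCm38. It was found in 21.59% of 32851 promoters and in none of those of Egfr, Erbb2, Erbb4 and Tgfa, the members with an entry.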

How the data were processed

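Libraries were made by full-length cDNA amplification with the SMART-Seq v4 PLUS kit from about 1 ng of RNA or less, without molecular identifiers, so reads of 1 gene are not independent molecules and counts carry counting error only as a lower limit of their error. Per the submitters' processing notes, the authors trimmed reads with Trim Galore 0.6.0 and cutadapt 1.15, mapped them with STAR 2.7.0f to mm10 (GRCm38) and deposited raw counts per gene symbol in a table for each age, without normalization or filtering. Which annotation was counted, and whether strand was used, is not given in the sources used here, so Erbb2, Nrg1 and Tgfa, whose exons overlap Mien1, Gm26578 and Gm43917 on the other strand in GENCODE, cannot be told apart from them without strand.

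Counts were tested with edgeR 4.0.16 in R 4.3.3 (TMM, glmQLFit and glmQLFTest after filterByExpr with its minimum count of 10), each age alone with treatment as the only term, and the interaction and age comparisons over all 14 libraries. P-values were adjusted over all genes tested. The SE given for an edgeR estimate was derived from the test, as the absolute log2 fold change over the square root of its F statistic. It is less reliable for estimates near 0. The thresholds (an adjusted p of 0.01 and 2-fold) are those the authors applied with DESeq2, and DESeq2 1.42.0 was run as an alternative, with limma 3.58.1 (voom) for the age comparisons with the pair as a random effect. Levels per kb used merged GENCODE exons. Other alternatives were DESeq2's size factors in edgeR, no filter, an adjusted p of 0.05 with no fold, the replicate or batch block, and leaving out libraries or pairs. The fits were tested on simulated data without pair effects, in which 200 genes were changed by more than 2-fold. There edgeR recovered 82% of them at P0, 47% at P6 and 43% for the interaction. With the replicate block it recovered 76%, 37.5% and 34%. DESeq2 recovered 89.5% at P0 and 64% at P6, but also called 13 and 28 unchanged genes. Genes not called at P6 or in the interaction may therefore still have changed.

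Replicate numbers were treated as pairs, because the labels give both libraries of a number 1 batch (at P0, replicates 3 and 4 share 1) and because the 2 libraries of each number deviated from their group means together, with a correlation across genes of 0.124 to 0.427 at P0 and of 0.235 to 0.586 at P6. No library was a copy of another of its own group, since replicates differed far beyond sampling noise. Libraries of different groups were not compared in this way. The labels do not say whether samples of a group came from separate litters, so p-values measure only the spread between these samples. Besides the 7 members, genes were named from each pathway list if called at P0, at P6 or in the interaction, and otherwise as the 2 genes of the list with the smallest p-values at P0. The members and all gene lists, markers included, were chosen with earlier results of these data known.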

Additional observations from a re-analysis of the deposited data

Results flagged for a closer look

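Among the 4 DMSO libraries at P0, Nrg1 in replicate 2 stood at 10.3 RPM, while the nearest other library was at 2.03 RPM and the gap took up 0.963 of the range. Cblb in DMSO replicate 1 at P0 stood at 43.6 RPM, with the nearest of the others at 66.4 RPM and a gap of 0.860 of the range. Both were found among 34 sets of 4 libraries examined (17 genes in 2 groups), and chance alone takes about 1 in 20 such sets past the threshold that was used.

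Btc, the ligand betacellulin, was higher with CompE in all 4 pairs at P0 and lower in all 3 pairs at P6. At P6 it was at 10.3, 2.72 and 8.09 RPM with CompE and at 15.0, 6.59 and 9.22 RPM with DMSO. The P6 response minus the P0 response was -1.10 on the log2 scale (SE 0.531, unadjusted p 0.0585, adjusted p 1.00 in edgeR's quasi-likelihood test), and -1.23 (SE 0.368, adjusted p 0.264) with the replicate block, so that the difference did not pass the correction.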

How the results depend on the processing

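The replicate block, which the pairing of the libraries calls for, took the number of the 7 genes called at P0 from 0 to 1 (Erbb4), as did the batch block, and to 2 (Erbb4 and Egfr) with an adjusted p of 0.05 and no fold threshold. With the block and without replicate 3 or without replicate 4 it was 1 each time, and it was 0 without replicate 1 or 2. At P6 and in the interaction no alternative called any of the 7, and leaving out single libraries gave 0 to 0 calls there and at P0. For P6 over P0 with DMSO the count was 1 (Erbb4) with an adjusted p of 0.05 and no fold, with DESeq2 and with the pair in voom, and 0 to 1 when single libraries were left out. With CompE it was 1 (Erbb4) with an adjusted p of 0.05 and no fold, with DESeq2, with no filter and with the 7 CompE libraries alone, and 0 to 1 without single libraries. The cause was not tested. Erbb4 was lower with CompE in 24 of 24 alternatives at P0 (-1.21 to -0.79, adjusted p 0.000402 to 0.419) and in 19 of 19 at P6 (-1.85 to -0.58, adjusted p 0.271 to 1.00), and Egfr in 24 of 24 at P0 (-0.99 to -0.59). With TMM-scaled CPM in place of RPM, Erbb2 was at 77.6 and Erbb3 at 89.8 in CompE libraries at P0, and Egfr at P6 was lower in 2 of 3 pairs. Over the longest annotated transcript, with DMSO at P0, Tgfa was at 23.8 ± 3.16 RPM per kb (SD, n = 4). It then did not overlap within 1 SD with Erbb2 (15.7 ± 1.69) or Erbb3 (15.3 ± 2.59). Hbegf, at 9.22 RPM per kb, came above Egfr at 8.88, within 1 SD. With DMSO at P6, Tgfa was at 23.5, Hbegf at 5.80 and Nrg1 at 0.427 RPM per kb. Of 1802 values of single genes under the alternatives, 1757 stayed on their side of the threshold, 40 moved past it and 5 lost it, and none turned its sign with an estimate above 1 SE. Depth bears most on Nrg1, which had as few as 2 counts in a P6 library, though its libraries of 1 group also differed widely (50 to 413 counts with DMSO at P0).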
